A study of Saccharomyces cerevisiae with 6 samples.

Results

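Budding yeast (Saccharomyces cerevisiae) takes up iron through a set of genes switched on by the transcription factor Aft1. Followed here were 9 of these genes (FRE1, FRE2, FET3, FTR1, ARN1, ARN2, FIT1, FIT2 and FIT3) and AFT1, which encodes the regulator itself. For short, these 10 are called the iron uptake genes below. They were chosen by name, as probe sets to which the platform annotation assigns exactly 1 gene. Each of the 10 genes had 1 such probe set, out of 5656 genes with at least 1. All 10 were among the 6808 probe sets bright enough to be tested, with a scaled signal that averaged 50 or more.

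The mutant group was 3 arrays from cells whose histone H3 has arginines at positions 4, 36 and 79, which are lysines in the normal protein, and it was compared with 3 arrays from cells with wild-type H3. All cultures grew in selective galactose medium and then spent 6 h in selective glucose medium before harvest at an optical density of 0.5 to 0.7. Per the series design, the shift to glucose turns off wild-type H3, so that the mutant form is the only H3 made. Strain backgrounds and plasmids are not described in the labels, and nothing in them gives the iron content of the media. Any such difference between the groups cannot be told apart from the replaced lysines.

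Iron enters yeast by a reductive and a siderophore route. In the reductive route, surface reductases convert ferric to ferrous iron, and a complex of an oxidase and a permease carries it across the plasma membrane. In the siderophore route, iron bound to small microbial chelators is taken in whole by dedicated transporters, and mannoproteins in the cell wall help to hold the chelators near the cell. Aft1 moves into the nucleus and activates both routes when cells sense low iron-sulphur cluster supply.

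Signals are MAS5 intensities after each array was scaled to a common trimmed mean of 500. A probe set's signal depends on its own probes, so levels are compared between arrays for 1 gene and not between genes. Differences are mutant minus wild type of log2(signal + 16), a scale that understates changes of dim probe sets. A gene was called when its limma p-value, adjusted by Benjamini-Hochberg over the 6808 probe sets, was under 0.05. Arrays correlated at 0.964 to 0.983 within the mutant and 0.985 to 0.989 within the wild type (Pearson, log2 scale), and the median SD within a group was 0.20 in the mutant and 0.13 in the wild type. Probe sets shared by the H3 genes HHT1 and HHT2 were also read. The first gave 914, 1060 and 894 in mutant cells, against 2793, 2964 and 2847 in wild-type cells, while a brighter one overlapped between the groups. A dim one, not tested, gave 11.7, 29.1 and 14.9 in mutant cells, against 7.3, 8.5 and 10.9 in wild-type cells. These values show a difference between the groups and do not test the labels.

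None of the 10 iron uptake genes was called, while 2.25% of all probe sets tested were (0.896% higher and 1.35% lower). At an unadjusted p under 0.05, 4 of the 10 were higher (FRE2, ARN1, FIT3 and AFT1) and 1 was lower (ARN2), against 19.6% of all probe sets (10.7% higher and 8.92% lower). The same 5 genes had mutant and wild-type values that did not overlap, as did 25.8% of all probe sets (14.3% higher and 11.5% lower). The median difference of the 10 genes was 0.17, against 0.02 over all probe sets tested. It was 0.01 without mutant replicate 1 and 0.06 without mutant replicate 2, against 0.03 over all probe sets in both cases, and 0.29 without mutant replicate 3, against 0.0016. Both uptake routes held genes with higher and genes with lower means in the mutant.

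**Figure D1:**
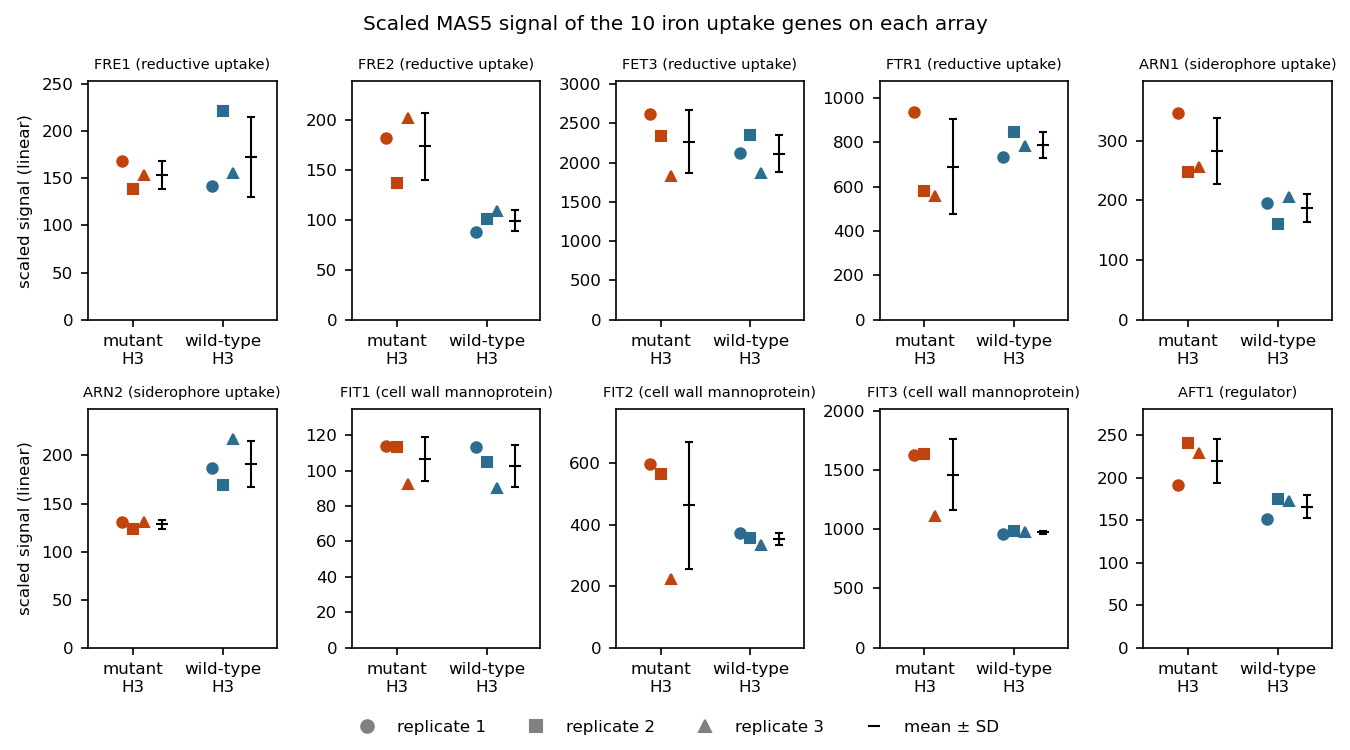
Scaled signal (linear axis from 0) of each iron uptake gene on each array, mutant H3 left and wild-type H3 right, with the mean and SD of 3 arrays. FRE2, ARN1, FIT3 and AFT1 lie higher on all 3 mutant arrays and ARN2 lies lower, while FIT2 splits the mutant arrays, at 598.4, 566.4 and 224.6.

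In the reductive route, FRE2 showed the largest difference of the 10 genes. FRE2 encodes a ferric reductase of the plasma membrane. Its scaled signal was 182.1, 137.1 and 202.3 in mutant replicates 1 to 3, against 88.1, 100.9 and 108.6 in wild-type replicates 1 to 3. Every mutant value lay above every wild-type value. The difference was 0.71 on the log2 scale (SE 0.17, 95% interval 0.32 to 1.09, limma adjusted p = 0.069), the 223rd smallest p of the 6808. Mutant replicate 2 was the lowest of its group, and without that array the gene was called, with a difference of 0.86 (limma adjusted p = 0.026), as were 1.82% of all probe sets on the higher side. On the deposited scale, without any scaling of the arrays here, the FRE2 groups still did not overlap, as for 3.88% of all probe sets on the higher side.

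FRE1, the other reductase, reduces copper as well as iron and is also a target of the copper regulator Mac1. It gave 168.4, 138.3 and 153.5 in mutant cells, against 141.8, 220.8 and 155.1 in wild-type cells. The wild-type group was the more scattered because of its replicate 2, and the groups overlapped. The difference was -0.14 (SE 0.18, 95% interval -0.54 to 0.27, limma adjusted p = 0.720), and without wild-type replicate 2 it was 0.04. The values of FRE1 therefore gave no stable direction, while those of FRE2 were higher under each of the 15 alternatives in which it was tested (its signal is below the filter at 200).

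FET3 encodes the multicopper oxidase and FTR1 the permease of the high-affinity complex, and the proteins reach the cell surface only together. FET3 gave 2621, 2344 and 1829 in mutant cells, against 2121, 2351 and 1873 in wild-type cells, so that mutant values lay on both sides of the wild-type range. Its difference was 0.09 (95% interval -0.26 to 0.44, limma adjusted p = 0.794). FTR1 gave 936.0, 578.9 and 556.9 in mutant cells, against 732.9, 848.4 and 784.3 in wild-type cells. Mutant replicate 1 was above all wild-type arrays and the other two mutant arrays were below them. The FTR1 difference was -0.22 (95% interval -0.66 to 0.21, limma adjusted p = 0.560), and it too depended on each mutant array. It was -0.46 without mutant replicate 1, -0.12 without mutant replicate 2 and -0.09 without mutant replicate 3 (limma adjusted p = 0.141, 0.740 and 0.845). Both intervals reach from a lower to a higher mutant level, and a fall as large as the ARN2 difference described next lies inside the interval of FTR1 and outside that of FET3.

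The siderophore transporters ARN1 and ARN2 had differences of similar size and opposite sign. ARN1, which imports ferrichromes, gave 346.8, 246.6 and 255.7 in mutant cells, against 195.9, 161.0 and 206.0 in wild-type cells. The groups did not overlap, and mutant replicate 1 was the highest array. The ARN1 difference was 0.55 (SE 0.17, 95% interval 0.16 to 0.93, limma adjusted p = 0.128). ARN2, which imports triacetylfusarinine C, gave 131.2, 123.3 and 130.5 in mutant cells, against 187.1, 169.5 and 216.9 in wild-type cells. The 3 mutant values lay close together and below every wild-type value. The ARN2 difference was -0.52 (SE 0.15, 95% interval -0.84 to -0.19, limma adjusted p = 0.10).

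The ratio of the deposited intensities of ARN1 to ARN2 within 1 array does not depend on how arrays are scaled, and was examined after the values had been seen. It was 2.64, 2.00 and 1.96 on the mutant arrays, against 1.05, 0.95 and 0.95 on the wild-type arrays. The size of the ratio reflects the probes of each gene. Since ARN1 was higher and ARN2 lower on every mutant array, the ratios of the groups had to separate, and they are given as a description. How their change divides between ARN1 and ARN2 depends on the scaling. With the deposited scale, on which the median of all probe sets was -0.22, ARN2 was called lower (difference -0.74, limma adjusted p = 0.026) and 5.43% of all probe sets were called lower. Relative to that median the ARN2 difference was -0.52, and that of ARN1 was 0.53.

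**Figure D2:**
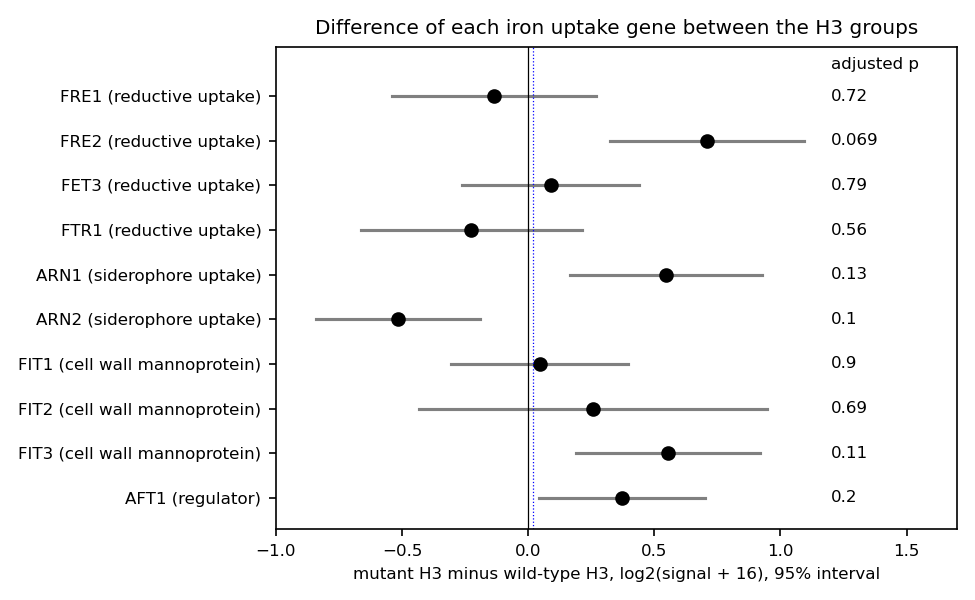
Mutant minus wild-type difference of each iron uptake gene on the log2(signal + 16) scale, with its 95% interval from limma and its adjusted p. The dotted line is the median of all probe sets tested (0.02). The intervals of FRE2, ARN1, FIT3 and AFT1 lie above 0 and that of ARN2 below 0, and no adjusted p is under 0.05.

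Of the cell wall mannoproteins, FIT3 had a higher signal on all mutant arrays. The FIT proteins are anchored in the wall and help retain siderophore iron. FIT3 gave 1627, 1639 and 1114 in mutant cells, against 961.1, 987.7 and 973.2 in wild-type cells. The difference was 0.55 (SE 0.16, 95% interval 0.19 to 0.92, limma adjusted p = 0.110). The wild-type arrays were nearly identical for FIT3, with an SD of 0.02 on the log2 scale, while the mutant SD was 0.31. Mutant replicate 3 was the closest to the wild type, and without it FIT3 was called, with a difference of 0.74 (limma adjusted p = 0.031), as were 0.353% of all probe sets on the higher side.

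FIT2 had the widest spread of the 10 genes. It gave 598.4, 566.4 and 224.6 in mutant cells, against 373.3, 355.2 and 334.0 in wild-type cells. Mutant replicates 1 and 2 were above every wild-type array and mutant replicate 3 was below every one. The mutant SD was 0.76 on the log2 scale, larger than in 98.6% of the probe sets tested, and the wild-type SD was 0.08. The difference of 0.26 (95% interval -0.43 to 0.95, limma adjusted p = 0.690) depended on each mutant array. It was 0.02 without mutant replicate 1, 0.06 without mutant replicate 2 and 0.69 without mutant replicate 3 (limma adjusted p = 0.983, 0.932 and 0.058). FIT1 showed no such split. It gave 113.9, 113.6 and 92.5 in mutant cells, against 113.5, 104.9 and 90.1 in wild-type cells, a difference of 0.05 (95% interval -0.31 to 0.40, limma adjusted p = 0.902).

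AFT1, which encodes the activator itself, gave 191.0, 240.5 and 228.6 in mutant cells, against 151.1, 174.4 and 172.8 in wild-type cells. All mutant values were above all wild-type values. The difference was 0.37 (SE 0.15, 95% interval 0.04 to 0.70, limma adjusted p = 0.204). Aft1 activity is mainly set by where the protein is in the cell, which an RNA level does not measure. On the deposited scale the AFT1 groups overlapped and the difference was 0.14.

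The spread of the uptake genes was uneven between the groups. The SD on the log2 scale was larger in the mutant for 8 of the 10 genes, as it was for 68.1% of all probe sets tested. Mutant replicate 3 had the lowest mutant value for 5 of the 10 genes (FET3, FTR1, FIT1, FIT2 and FIT3), where it had the lowest for 30.3% of all probe sets tested, and for 10 of 16 tested genes of the remaining Aft1 and Aft2 regulon. Averaged over the 9 uptake genes without AFT1, each centred on its own mean, the arrays stood at 0.29, 0.06 and -0.13 in mutant replicates 1 to 3, against -0.10, -0.03 and -0.09 in the wild type. Mutant replicate 1 was thus the highest array and mutant replicate 3 the lowest, with all wild-type arrays between mutant replicates 2 and 3. These counts were made after the values had been seen.

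**Figure D3:**
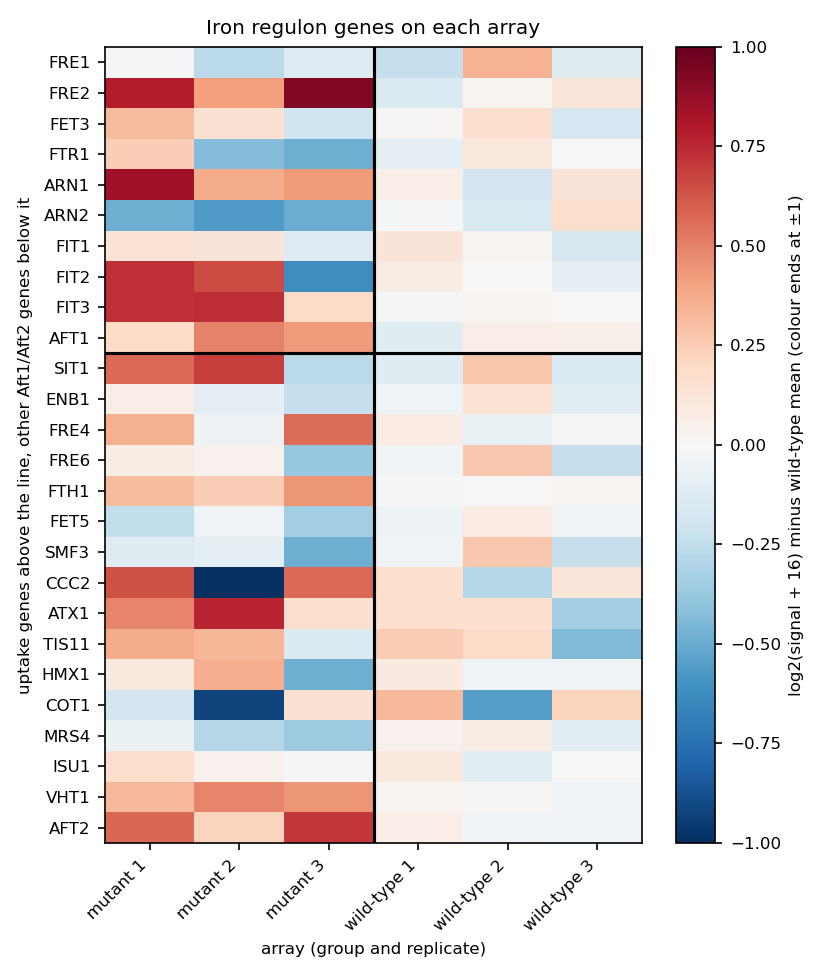
Each gene's log2(signal + 16) minus its wild-type mean, by array, for the 10 uptake genes (above the line) and 16 further tested genes of the Aft1 and Aft2 regulon (below it). Columns are the 3 mutant and then the 3 wild-type arrays. FIT2 and FIT3 are high in mutant replicates 1 and 2, and ARN2 is low in all 3 mutant arrays.

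Of the 5622 other single-gene probe sets tested, those most like that average profile over the 6 arrays were RDN37-1 (Pearson r = 0.99), AAP1 (0.98), CBF2 (0.95), IRC8 (0.91), PTP2 (0.90) and PEX21 (0.90). AAP1 encodes an aminopeptidase and CBF2 a kinetochore protein. RDN37-1 is a ribosomal RNA gene with near-identical copies, and its probe set gave 125.6, 64.3 and 30.7 in mutant cells, against 27.5, 42.0 and 36.7 in wild-type cells. Only mutant replicates 1 and 2 reached 50, the average signal required for testing. This dim probe set was tested because of those arrays, so its likeness to the profile is less secure. None of the 6 belongs to the iron lists used here, and none was called (limma adjusted p from 0.319 to 0.861). These r values are the highest among many candidates over few arrays and describe these arrays alone.

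Some of the uptake genes lie near chromosome ends, which the choice of genes did not use. By gene order in the R64 annotation, 6 of the 10 lie among the outermost 20 protein-coding genes of a chromosome arm, against 10.7% of 6002 protein-coding genes: FRE2 is 4 genes from an end, ARN2 5, FIT1 8, ARN1 12, FIT3 13 and FIT2 14. FTR1 is 52 genes from an end, and AFT1, FET3 and FRE1 are 182, 194 and 243 genes from one. FIT2 and FIT3 are direct neighbours and form 1 locus. In mutant replicate 3, scaled FIT2 was below all wild-type arrays and scaled FIT3 above them, while on the deposited scale both were below (FIT3 at 211.7, against 237.9, 244.7 and 241.0 in the wild type). Of the genes with non-overlapping groups, FRE2, ARN1 and FIT3 (higher) and ARN2 (lower) are in the outer 20, so these 4 outer genes did not share 1 direction.

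The genes next to FRE2 and ARN2 were then compared, a step chosen after the values had been seen. FRE2 lies between MCH2, which resembles monocarboxylate transporters, and COS9, of a subtelomeric membrane protein family. MCH2 gave 33.9, 43.3 and 54.5 in mutant cells, against 95.7, 64.6 and 59.4 in wild-type cells (difference -0.57, limma adjusted p = 0.177). The brightest COS9 probe set gave 145.8, 149.6 and 134.1 in mutant cells, against 213.3, 265.2 and 191.8 in wild-type cells (difference -0.58, limma adjusted p = 0.092). Another COS9 probe set differed by -0.98 (limma adjusted p = 0.082), and a further one was too dim to be tested and overlapped between the groups. Both neighbours were thus lower on every mutant array, while FRE2 between them was higher on every mutant array. MCH2 is dim, with a mutant mean of 43.9 below the average signal required for testing. It was tested because of its wild-type mean of 73.2, so its direction is less secure than that of COS9.

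ARN2 lies between COS8, of the same family as COS9, and PAU13, of a large family of cell wall mannoproteins. The brightest COS8 probe set gave 135.3, 131.4 and 132.5 in mutant cells, against 298.6, 322.5 and 229.4 in wild-type cells, and was called lower (difference -0.99, limma adjusted p = 0.014). PAU13 gave 759.1, 586.6 and 579.6 in mutant cells, against 811.2, 1136 and 1623 in wild-type cells (difference -0.83, limma adjusted p = 0.098). At these probe sets, ARN2 and both its neighbours were lower on every mutant array. Of the other COS8 probe sets, 1 differed by -0.93 and was called (limma adjusted p = 0.048) and 1 differed by -0.52, was not called (0.277) and had groups that overlapped. Probe sets of the COS and PAU families can share sequence, so these neighbours may not be measured separately from their relatives. In all, 6 genes next to the 6 outer uptake genes were tested, not counting the FIT2 and FIT3 pair. All 6, the dim MCH2 among them, had a lower mean in the mutant, as did 3234 of the 6808 probe sets tested. Of the 6, only COS8 was called. STL1 next to FIT1 and FRE5 next to FIT3 were too dim to be tested. Both had a higher mean in the mutant (33.5 against 27.9, and 8.2 against 4.8).

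The rest of iron metabolism was read from 6 lists with 81 genes. Of these, 80 had a single-gene probe set and 77 were tested, and limma called none in either direction. Over all probe sets tested 2.25% were called. At an unadjusted p under 0.05, 12 of the 77 were higher and 3 lower, where 10.7% and 8.92% of all probe sets were. The 12 include CTA1, a dim gene described below. The median difference of the 77 genes was 0.04.

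Among 16 tested genes of the remaining Aft1 and Aft2 regulon, which includes further siderophore transporters and reductases, the median difference was 0.05, with 9 higher and 7 lower means. The smallest p belonged to VHT1, the biotin transporter, which gave 736.9, 826.7 and 800.9 in mutant cells, against 595.5, 591.7 and 571.8 in wild-type cells (difference 0.42, limma adjusted p = 0.113). AFT2, the paralogue of AFT1, came next. It gave 152.6, 116.0 and 169.2 in mutant cells, against 103.0, 95.3 and 94.1 in wild-type cells (difference 0.50, limma adjusted p = 0.145). AFT1 and AFT2 were thus each higher on every mutant array than on any wild-type array, as were 14.3% of all probe sets tested, and on the deposited scale the groups of both overlapped.

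Genes of low-affinity and vacuolar iron handling had a median difference of 0.04 over 9 genes. YAP5, which encodes the activator that responds to high iron, differed by -0.58 (limma adjusted p = 0.145), with 78.7, 48.5 and 49.7 in mutant cells, against 101.4, 82.7 and 98.5 in wild-type cells. TYW1, an iron-sulphur enzyme of transfer RNA modification, differed by 0.45 (limma adjusted p = 0.147). Iron-sulphur cluster assembly and sensing genes had 15 higher and 4 lower means over 19 genes, where 3574 of 6808 probe sets tested had higher means. The list's median difference was 0.14. In that list the assembly factor gene IBA57 differed by 0.40 (limma adjusted p = 0.175) and ISD11, a partner of the cysteine desulphurase, by 0.38 (limma adjusted p = 0.190).

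Copper supplies the Fet3 oxidase, and 9 tested genes of copper uptake and handling had a median difference of -0.16. CRS5, a copper-binding metallothionein, gave 402.2, 556.7 and 390.5 in mutant cells, against 305.8, 282.1 and 317.8 in wild-type cells (difference 0.53, limma adjusted p = 0.121). COX17, which carries copper to cytochrome oxidase, differed by 0.45 (limma adjusted p = 0.196). Without mutant replicate 2 COX17 was called (difference 0.64, limma adjusted p = 0.041), as were 1.82% of all probe sets on the higher side. Haem synthesis genes had a median of -0.04 over 8 genes, with HEM14, protoporphyrinogen oxidase, at 0.27 and HEM15, the ferrochelatase, at -0.24 (limma adjusted p = 0.322 and 0.323). Enzymes that use iron had a median of 0.01 over 16 genes, with the catalase gene CTA1 at 0.38 and RNR4, of ribonucleotide reductase, at -0.32 (limma adjusted p = 0.227 for both). CTA1 is dim, with a wild-type mean of 44.8 below the average signal required for testing. It was tested because of its mutant mean of 63.2, so its direction is less secure than that of RNR4.

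**Figure D4:**
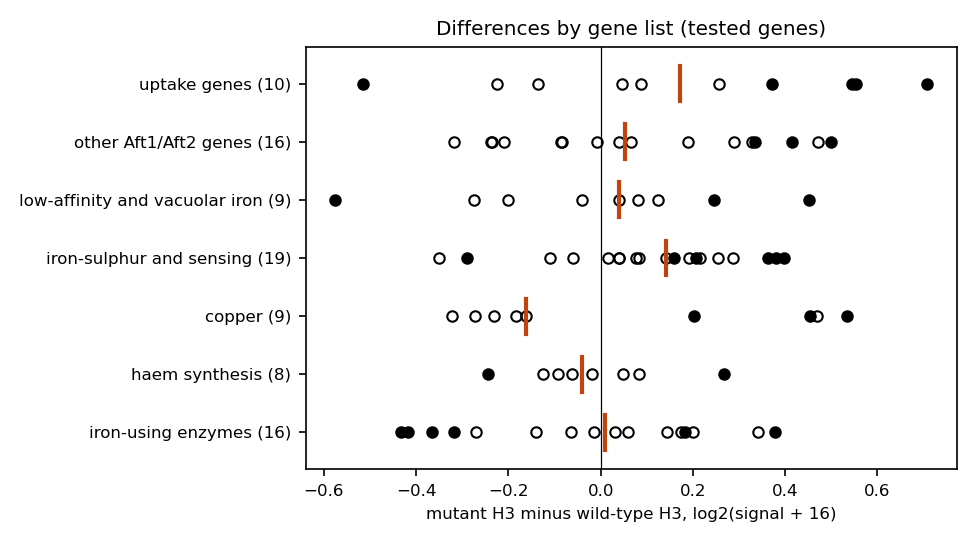
Mutant minus wild-type difference of each tested gene, by list, on the log2(signal + 16) scale. Filled points are genes whose groups do not overlap, open points genes whose groups do, and the vertical bar is the list's median, 0.17 for the uptake genes and -0.16 to 0.14 for the other lists.

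The direction of FET3 and FIT1 depended on whether the arrays were put on a common scale. The deposited mutant arrays have lower trimmed means (110.0, 107.5 and 95.01) than the wild-type arrays (123.8 to 123.9), and no source used here says what set this. With trimmed means made equal, 7 of the 10 genes had a higher mean in the mutant. On the deposited scale 5 had, FET3 and FIT1 being the genes that turned sign. Relative to the median of all probe sets on that scale (-0.22), FET3 stood at 0.055 and FIT1 at 0.047. These have the sign found with equal trimmed means. On the deposited scale, FRE2 (higher) and ARN2 (lower) were the 2 genes whose groups did not overlap. On that scale the same held for 3.88% of all probe sets on the higher and 33% on the lower side. FRE2, ARN1, FIT2, FIT3 and AFT1 had positive differences, and ARN2 and FTR1 negative ones, under each of the alternatives in which they were tested.

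**Figure D5:**
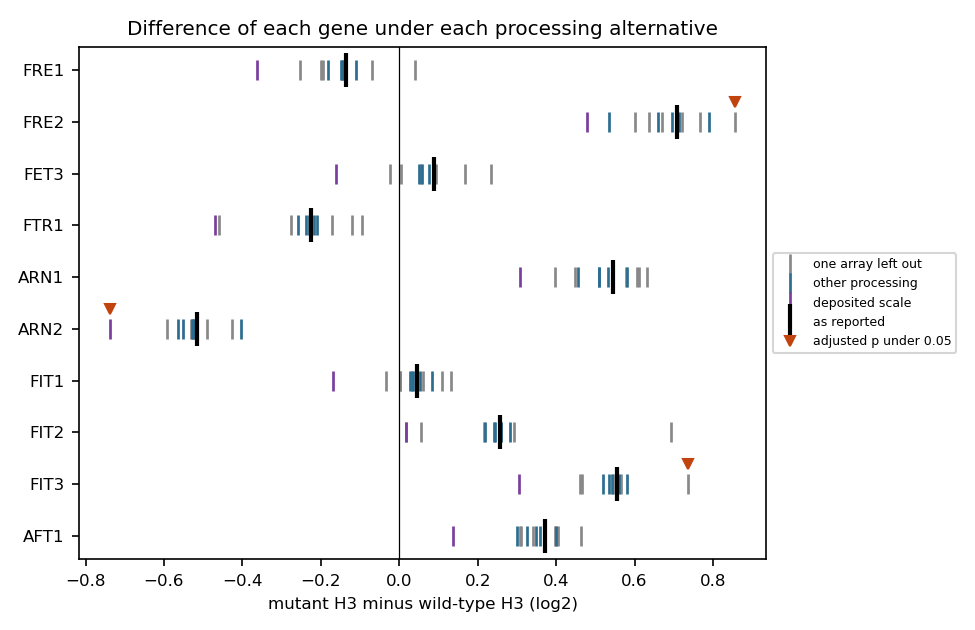
Difference of each iron uptake gene under each processing alternative and with each array left out (vertical ticks, log2 scale), with the reported value in black, the deposited scale in purple and a triangle over any value with an adjusted p under 0.05. FRE2 has a triangle at 0.86, FIT3 at 0.74 and ARN2 at -0.74.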

How the data were processed

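The deposited intensities were made by the authors with MAS5, per the submitters' processing notes, on a linear scale with 1 column per sample. The MAS5 version, its settings and the genome build are not given in the sources used here. Of 9335 probe sets, 60 are controls and were dropped. The rest of each array was multiplied by 1 factor to bring its 2% trimmed mean to 500. Exactly 1 gene was listed for 6504 probe sets, all matched to the R64 gene table by gene ID, several genes for 328 and none for 2503. Probe sets with a mean of at least 50 were tested on log2(signal + 16) in R 4.3.3 by limma 3.58.1, using lmFit, then eBayes with trend set to true. The median SE of a difference was 0.16, and 3 arrays per group limit the precision. Titles of the samples gave the group and the replicate number, and per the series design replicates are separate cultures.

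The 10 genes, the lists and the tests were chosen with earlier results of these data known. Named genes were all 10 uptake genes, called list genes or else the 2 smallest p of each list, and the 6 best-correlated probe sets; any gene beyond these was picked with its values in view, as the text says. Each list gene entered with its brightest probe set. LSO1 had no single-gene probe set. Promoter motifs were planned, and promoter sequences were not used here. The procedure was tested on simulated data. Alternatives numbered 16.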

Additional observations from a re-analysis of the deposited data

How the results depend on the processing

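With 3 arrays per group, the limit on these results is the spread between arrays. The number of uptake genes called was 0 in each direction as reported. It became 1 lower with the deposited scaling (ARN2), where 5.43% of all probe sets were called lower. It ranged from 0 to 1 higher when 1 array was left out (FRE2 without mutant replicate 2, FIT3 without mutant replicate 3), and from 0 to 0 lower. Over all probe sets tested, 1.82% were called higher without mutant replicate 2 and 0.353% without mutant replicate 3. The number of other list genes called ranged from 0 to 1 higher (COX17 without mutant replicate 2) and from 0 to 0 lower. Under equal medians, quantile normalization, offsets of 1 and 64, no signal filter, a filter at 200, no intensity trend and removal of each array's length trend, both counts stayed at 0. The filter at 200 left 5 of the 10 genes.

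Signs turned for FET3 with the deposited scaling (-0.16) and without mutant replicate 1 (-0.024), for FIT1 with the deposited scaling (-0.17) and without wild-type replicate 3 (-0.034), and for FRE1 without wild-type replicate 2 (0.040). With 1 array left out the FRE1 difference ranged from -0.25 to 0.040, that of FET3 from -0.024 to 0.23 and that of FIT1 from -0.034 to 0.13. The cause was not tested.

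The deviations of same-numbered arrays correlated at 0.13, 0.16 and 0.04 for replicates 1, 2 and 3. Every array but mutant replicate 3 correlated best with its own number. Mutant replicate 3 stood at 0.048 with wild-type replicate 1, against 0.042 with wild-type replicate 3. These correlations were low and the numbers were not taken to pair the samples, though the values do not settle whether they do. With the replicate block 0 uptake genes and 0 other list genes were called, FRE2 had a limma adjusted p = 0.0502, and 255 of all probe sets were called in place of 153.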
